A study of Mus musculus with 8 samples.

Results

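The miR-15/16 family was followed in mouse footpad skin, the site where sweat glands form, in wild-type embryos and in embryos with a conditional knockout of Dicer. It was taken here as 5 mature miRNAs with one shared seed: mmu-miR-15a-5p, mmu-miR-15b-5p, mmu-miR-16-5p, mmu-miR-195a-5p and mmu-miR-497a-5p. They were chosen by name among the 1881 mouse miRNAs on the array, together with all 10 of their probes among 4415 on the array, and mmu-miR-322-5p, which has the same seed, was kept out by the rule. All 5 members were detected on all 8 arrays, and all 5 were among the 385 miRNAs that were tested.

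RNA was measured on 8 single-colour Agilent miRNA arrays, 2 in each of 4 groups on a C57BL6 background. The groups were wild-type (WT) footpads at embryonic stage E16.5, Dicer conditional knockout (cKO) footpads at E16.5, WT footpads at E17.5 and cKO footpads at E17.5. Each array held RNA pooled from 3 to 5 embryos, so every p-value measures the spread between pools and not between single embryos. The labels used here do not give the Cre driver or the cells in which Dicer was deleted. Both genotypes were dissected as whole footpad skin, so fewer cells of a type and less RNA per cell cannot be told apart.

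Dicer is the enzyme that cuts a miRNA hairpin into its mature strands, so a cell without it stops making most miRNAs. A miRNA finds its targets mainly through its seed, the bases 2 to 8 counted from the 5′ end, and miRNAs with one seed share many targets. The miR-15/16 family is best known for holding back cell division: its targets include cyclin D1, cyclin E1, the kinases Cdk6, Wee1 and Chek1, and the survival factor Bcl2. Its members are made in many cell types, and miR-15a with miR-16 is often lost in human chronic lymphocytic leukaemia.

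The 5 mature sequences are shown with the seed in capitals, because the seed defines the family and the remaining bases are what the array uses to tell its members apart (RefSeq, 5 of 5 matched).
mmu-miR-15a-5p: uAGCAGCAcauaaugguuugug
mmu-miR-15b-5p: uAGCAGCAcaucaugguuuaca
mmu-miR-16-5p: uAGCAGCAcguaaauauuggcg
mmu-miR-195a-5p: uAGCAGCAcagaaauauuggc
mmu-miR-497a-5p: cAGCAGCAcacugugguuugua

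The seed AGCAGCA was found in 10 of the 1679 mature mouse miRNA names in the RefSeq table, the 5 members and 5 others. The members differ outside the seed. Over all aligned positions, seed included, identity was 50% between miR-16-5p and miR-497a-5p and 90.5% between miR-16-5p and miR-195a-5p. The latter pair differs at 2 positions counted from the 5′ end, G10A and U11G. A further 2 sets were read beside the family because they carry nearly the same letters. The seed-sharing miR-322-5p and its cluster neighbour miR-503-5p, and miR-103-3p, have the following sequences, again with bases 2 to 8 in capitals.
mmu-miR-322-5p: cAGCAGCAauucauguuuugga
mmu-miR-503-5p: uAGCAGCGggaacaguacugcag
mmu-miR-103-3p: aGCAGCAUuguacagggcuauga

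In miR-103-3p and its near copy miR-107-3p the letters AGCAGCA lie at bases 1 to 7, one base earlier than in the family, so their seed is a different one.

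The members come from 3 places in the genome (RefSeq, build GRCm38.p6). The mature miR-15a-5p lies at chr14:61632075-61632096 and a copy of miR-16-5p at chr14:61631936-61631957, both on the minus strand inside Dleu2, a long non-coding RNA gene. The mature miR-15b-5p lies at chr3:69009775-69009796 and a second copy of miR-16-5p at chr3:69009918-69009939, both on the plus strand inside Smc4, which encodes a condensin subunit that compacts chromosomes for mitosis. The mature miR-497a-5p lies at chr11:70234730-70234751 and miR-195a-5p at chr11:70235062-70235082, both on the plus strand. The array reads the mature strand, so miR-16-5p is the sum of both of its loci.

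Each member had 2 probes with 15 spots each, and the brighter probe gave the values below. The probes pair from the 3′ end of the miRNA and differ in how far they reach into the seed, which both miR-15a-5p probes cover in full. The brighter probe of miR-195a-5p is shown with its bases that do not pair with miR-16-5p in capitals, and that of miR-16-5p with its bases that do not pair with miR-195a-5p.
miR-195a-5p probe: gccaatatttCTgtgctgc
miR-16-5p probe: CgccaatatttACgtgct

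The miR-195a-5p probe thus has 2 of 19 bases that do not pair with miR-16-5p, the smallest number for any probe of a member against another member. How much miR-16-5p adds to the signal of miR-195a-5p was not tested. The dimmer miR-195a-5p probe also has 2, and the other 8 probes of members had at least 3 mismatches to every other member.

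Values are log2 intensities after each array was divided by its own scaling factor, so they compare arrays for one miRNA and not one miRNA with another. The scaling factors ranged from 284.3 to 521.4 intensity units, and between 279 and 384 miRNAs were detected on an array. The lowest counts, 279 and 281, were on replicate 2 of WT and of cKO at E16.5. These arrays also had the most outlier spots (4.9% and 6.0%), so low detection fell on E16.5 arrays only. Arrays of a group correlated with r from 0.997 to 0.999 across the 385 tested miRNAs, which are not independent replicates. With 2 arrays a group, precision is limited throughout. The 4 groups filled 4 columns of 1 slide, so slide position and group cannot be told apart. The 7 skin epithelium markers (the miR-200 family with miR-141 and miR-429, miR-203-3p and miR-205-5p) were all lower in cKO, with a median log2 change of -3.12, and their summed level ranged from 4.72 to 4.96 in WT and from 1.37 to 2.00 in cKO.

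The plot of scaled intensities shows the family on every array. Averaged over both stages, 4 of the 5 members rose in cKO and none fell, by 1.15- to 1.26-fold, a direction that control-probe scaling reversed for all 5. With no scaling or scaling on all probes every member except miR-497a-5p had a negative change, and none was called. On the scaling used here the change was highest for miR-497a-5p, and miR-15b-5p did not pass the test. Among all 385 tested miRNAs 46% rose and 14.5% fell in this comparison, so a rise was common. The members' median change was 0.20 on the log2 scale, beside a median of 0.17 over all miRNAs tested.

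**Figure D1:**
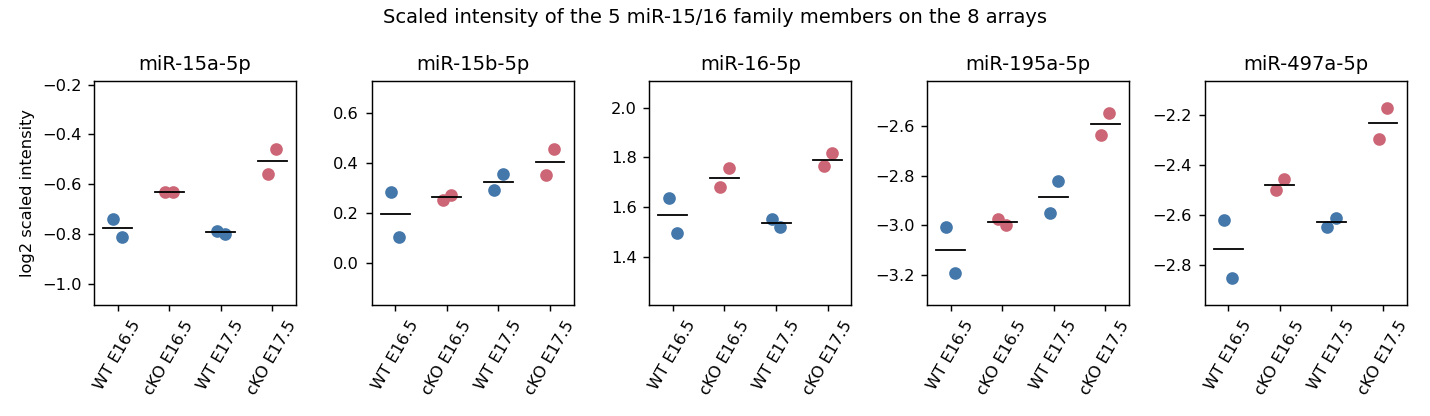
Log2 scaled intensity (vertical axis, no unit) of each member on the 2 arrays of each group. Points are arrays, black lines are group means, and every panel spans the same log2 range. On this scaling the cKO arrays lie above the WT arrays without overlap for miR-15a-5p, miR-16-5p and miR-497a-5p, and the 4 groups interleave for miR-15b-5p. How many of all tested miRNAs show no overlap was not counted, and 46% of them rose by limma.

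The first member, miR-15a-5p, is cut from the Dleu2 transcript. The scaled log2 level of this miRNA was -0.74 and -0.81 in WT and -0.63 and -0.63 in cKO at E16.5, and -0.79 and -0.80 in WT and -0.56 and -0.46 in cKO at E17.5. All 4 cKO arrays stood above all 4 WT arrays. Here and for the members below, the share of all tested miRNAs without overlap was not counted, so this cannot be read as a trait of the family. Its change averaged over stages was 0.21 ± 0.031 (log2, SE; limma, adjusted p = 0.0031).

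The level of miR-16-5p was 1.64 and 1.50 in WT and 1.68 and 1.76 in cKO at E16.5, and 1.55 and 1.52 in WT and 1.77 and 1.82 in cKO at E17.5. The genotypes again did not overlap, although the highest WT array and the lowest cKO array at E16.5 differed little. The averaged change was 0.20 ± 0.040 (log2, SE; limma, adjusted p = 0.0089). Before scaling, miR-16-5p read 1238 and 803 intensity units in WT and 922 and 973 in cKO at E16.5, and 1476 and 1493 in WT and 1386 and 1321 in cKO at E17.5. On these unscaled intensities both cKO arrays at E17.5 lay below both WT arrays, the opposite order to the scaled levels.

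The remaining member made from the Smc4 locus, miR-15b-5p, read 0.28 and 0.10 in WT and 0.25 and 0.27 in cKO at E16.5, and 0.29 and 0.36 in WT and 0.35 and 0.45 in cKO at E17.5. The genotypes overlapped at both stages. The averaged change was 0.07 ± 0.050 (log2, SE; limma, adjusted p = 0.26), which did not pass the test and does not show that the level was equal.

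The chromosome 11 members were dimmer, between 31.1 and 85.2 intensity units on their brighter probes. The level of miR-497a-5p was -2.62 and -2.86 in WT and -2.50 and -2.46 in cKO at E16.5, and -2.65 and -2.61 in WT and -2.29 and -2.17 in cKO at E17.5. All cKO arrays lay above all WT arrays. The averaged change of 0.33 ± 0.064 (log2, SE; limma, adjusted p = 0.0089) was the highest of the 5, and 18.8% of the other 384 tested miRNAs rose more.

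The level of miR-195a-5p was -3.00 and -3.19 in WT and -2.97 and -3.00 in cKO at E16.5, and -2.95 and -2.82 in WT and -2.64 and -2.55 in cKO at E17.5. Within each stage the cKO arrays were higher, but the cKO arrays at E16.5 lay below both WT arrays at E17.5. The averaged change was 0.20 ± 0.058 (log2, SE; limma, adjusted p = 0.031). This call was lost, with adjusted p from 0.055 to 0.099, without replicate 2 of WT at E16.5, replicate 1 of WT at E17.5 or any one of the 4 cKO arrays, which left 3 members called. It was also lost with quantile scaling (0.13, adjusted p = 0.090), again with 3 members called, and with median scaling (0.13, adjusted p = 0.18).

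Taken one stage at a time, the rise passed the test for 1 member at E16.5 and for 4 members at E17.5. At E16.5 35.8% of all tested miRNAs rose and 15.1% fell, and miR-15a-5p changed by 0.14 ± 0.044 (log2, SE; limma, adjusted p = 0.046). The other 4 members had changes between 0.07 and 0.26 at that stage, with limma adjusted p from 0.061 to 0.45. That single call was lost without any one of 5 arrays: either cKO array at E16.5, replicate 2 of WT at E16.5, or either WT array at E17.5 (0 members called in each case). Without replicate 1 of WT at E16.5, 2 members were called. With quantile scaling the count stayed at 1 but the member changed: miR-15a-5p was no longer called (limma, adjusted p = 0.098) and miR-16-5p was (0.22, adjusted p = 0.0082). With normexp background correction or no filter on dim miRNAs miR-15a-5p likewise missed the threshold (adjusted p = 0.062 and 0.051) and miR-497a-5p was the 1 member called (adjusted p = 0.027 and 0.045).

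At E17.5 36.1% of all tested miRNAs rose and 10.1% fell. The changes were 0.28 for miR-15a-5p, 0.25 for miR-16-5p, 0.29 for miR-195a-5p and 0.40 for miR-497a-5p, with limma adjusted p from 0.0055 to 0.035, and 0.08 for miR-15b-5p (adjusted p = 0.43). The count of 4 fell to 3 without either cKO array at E16.5, to 2 without replicate 1 of cKO at E17.5, and to 1 without replicate 2 of cKO or without either WT array at E17.5. The cKO effect itself did not differ between stages for any member past the test: 0 of 5 were called, beside 0.779% of all tested miRNAs higher and 0.779% lower. At an unadjusted p under 0.05 the count was also 0, and the members' limma adjusted p ranged from 0.21 to 0.97.

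Both probes of each member were compared, since a probe can differ in what it binds. For the change averaged over stages the brighter and dimmer probe gave 0.21 and 0.23 for miR-15a-5p, 0.20 and 0.18 for miR-16-5p, 0.33 and 0.27 for miR-497a-5p, 0.20 and 0.30 for miR-195a-5p, and 0.07 and 0.02 for miR-15b-5p. In this averaged comparison all 5 members kept their direction and their side of the threshold with the dimmer probe. The dimmer miR-195a-5p probe was the weakest of the 10: 6.67% of its spots were well above background on replicate 2 of WT at E16.5 and 20% on replicate 2 of cKO at E16.5. Its spots varied by up to 36.5% (coefficient of variation within an array).

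The direction of these changes depended on how arrays were scaled to each other. Scaling by the array's positive control probes turned all 5 averaged changes negative: -0.19 for miR-15a-5p, -0.33 for miR-15b-5p, -0.20 for miR-16-5p, -0.20 for miR-195a-5p and -0.08 for miR-497a-5p. There 3 members were called lower and 0 higher, by limma. The whole distribution moved along: the median over all tested miRNAs went from 0.17 to -0.17, and the split of calls from 56 lower and 177 higher to 179 lower and 7 higher. With no scaling the split was 57 lower and 6 higher, and with the 75th percentile of all probes 44 lower and 6 higher, with 0 members called in either case. In both of these settings every member except miR-497a-5p had a negative averaged change. At E16.5 the split went from 58 lower and 138 higher to 101 and 7 with control probes, 17 and 4 with no scaling and 18 and 6 with all probes. At E17.5 it went from 39 lower and 139 higher to 197 and 3, 47 and 4, and 31 and 4 in the same order, and to 53 and 71 with median scaling. For the difference between stages it went from 3 lower and 3 higher to 20 and 0 with control probes, 2 and 0 with no scaling and 3 and 0 with median scaling.

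**Figure D2:**
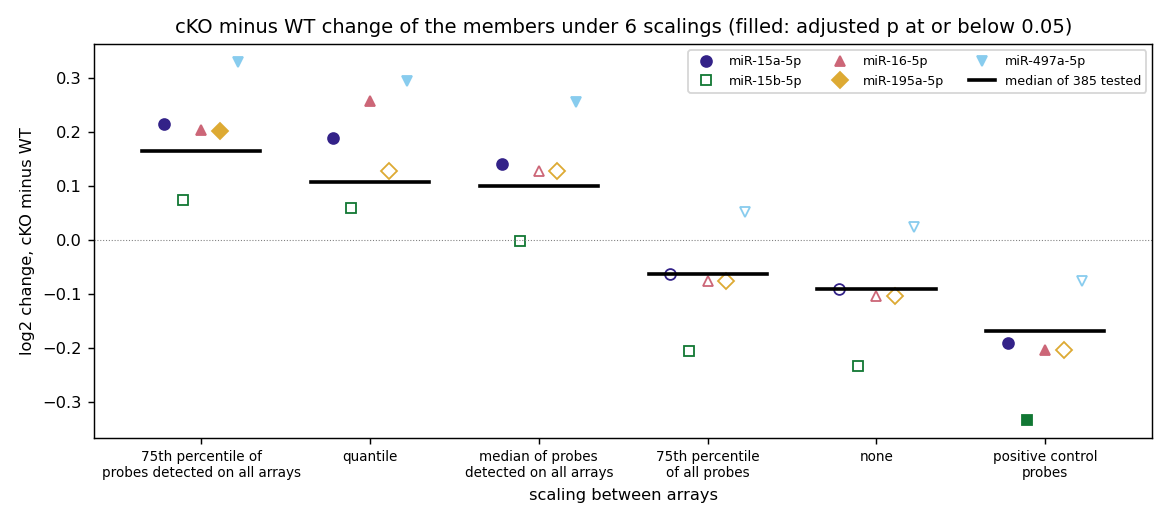
Log2 change, cKO minus WT averaged over both stages (vertical axis), of each member under 6 ways of scaling the arrays (horizontal axis). Coloured symbols are members, filled where limma's adjusted p was at or below 0.05, and black lines are the median of all 385 tested miRNAs, which moves from 0.17 to -0.17. The members move with the line, with miR-497a-5p above it and miR-15b-5p below it in all 6. Except with quantile scaling, all members shift by the same amount, so their order is fixed there.

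Among the 5 members, miR-497a-5p had the highest and miR-15b-5p the lowest change in the scaling used for the levels. Every scaling except quantile scaling shifts all members by the same amount, so among the 6 scalings only quantile scaling could change their order. There miR-497a-5p stayed highest and miR-15b-5p lowest, while the order of the other 3 changed. The order also depended on the probe: with the dimmer probes miR-195a-5p (0.30) stood above miR-497a-5p (0.27), and miR-15b-5p stayed lowest (0.02). Over the 6 scalings miR-497a-5p was above the median of all tested miRNAs by 0.09 to 0.19, and miR-15b-5p was below it by 0.05 to 0.16 (changes relative to the median from -0.16 to -0.05). The other members lay on both sides: from -0.02 to 0.08 for miR-15a-5p, -0.04 to 0.15 for miR-16-5p and -0.04 to 0.04 for miR-195a-5p. In the scaling used for the levels, 41.4% of the other tested miRNAs rose more than miR-15a-5p, 43.8% more than miR-16-5p, 44.3% more than miR-195a-5p and 63.5% more than miR-15b-5p.

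From E16.5 to E17.5 no member passed the test in WT, where 10.6% of all tested miRNAs fell and 4.16% rose. The WT changes ranged from -0.03 for miR-16-5p to 0.21 for miR-195a-5p, and miR-195a-5p alone among the 5 had an unadjusted p under 0.05 (limma, adjusted p = 0.13). Its dimmer probe gave 0.32 (limma, adjusted p = 0.037), on which 1 member was called. In WT the splits of all calls were 41 lower and 16 higher, but 4 and 188 with no scaling, 9 and 97 with the control probes, 4 and 13 with all probes, 11 and 27 with median scaling and 22 and 22 with quantile scaling.

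In cKO 1 member rose with stage, beside 20.3% of all tested miRNAs that fell and 15.3% that rose. This was miR-195a-5p, by 0.39 ± 0.081 (log2, SE; limma, adjusted p = 0.025), and 5 of the other 384 tested miRNAs rose more. The other 4 members had changes between 0.07 and 0.25 with adjusted p from 0.087 to 0.34. The count was 0 without any one of the 4 cKO arrays or either WT array at E17.5, and 2 without either WT array at E16.5. It was 3 with the mean of both probes. The split of all calls in cKO went from 78 lower and 59 higher to 67 and 108 with quantile scaling, 5 and 23 with no scaling and 6 and 2 with all probes.

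Differences between 2 members on one array do not depend on the factor an array is divided by, so all 10 pairs of members were compared between genotypes and between stages. None passed the two-sided exact permutation test after Benjamini-Hochberg adjustment over the 10 pairs (0 of 10 for genotype and 0 of 10 for stage), where the smallest raw p possible is 0.029. More than 2 pairs had to reach that p together for any to pass. The adjusted test therefore could not call 2 separated pairs, and 0 of 10 does not show that the differences were equal. At an unadjusted p under 0.05 2 pairs counted for genotype and 2 for stage, those whose groups did not overlap. The share of such pairs among all tested miRNAs was not counted, so these pairs cannot be read as a trait of the family.

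By genotype, miR-15b-5p minus miR-497a-5p was 2.91 and 2.96 in WT and 2.75 and 2.73 in cKO at E16.5, and 2.94 and 2.97 in WT and 2.65 and 2.62 in cKO at E17.5. All cKO arrays lay below all WT arrays, with a change of -0.26 (exact permutation p = 0.029, adjusted p = 0.14). For miR-15a-5p minus miR-15b-5p the change was 0.14 (exact permutation p = 0.029, adjusted p = 0.14), and the groups were barely apart, with -0.92 the highest of WT and -0.91 the lowest of cKO. By contrast miR-15a-5p minus miR-16-5p changed by 0.01 between genotypes, from -2.34 ± 0.030 in WT to -2.32 ± 0.047 in cKO (SD, n = 4; exact permutation p = 0.74).

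By stage, miR-16-5p minus miR-195a-5p was 4.64 and 4.69 in WT and 4.65 and 4.76 in cKO at E16.5, and 4.50 and 4.34 in WT and 4.40 and 4.37 in cKO at E17.5. The 4 arrays at E17.5 all lay below the 4 at E16.5, by 0.24 in WT and 0.32 in cKO (change over all arrays -0.28, exact permutation p = 0.029, adjusted p = 0.11). For miR-15a-5p minus miR-195a-5p the change was -0.25 with the same p-values, again with no overlap. On these arrays miR-195a-5p was higher at E17.5 in both genotypes relative to miR-15a-5p and to miR-16-5p. Both pairs share the miR-195a-5p values, so they are not separate results, and neither passed the adjusted test.

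**Figure D3:**
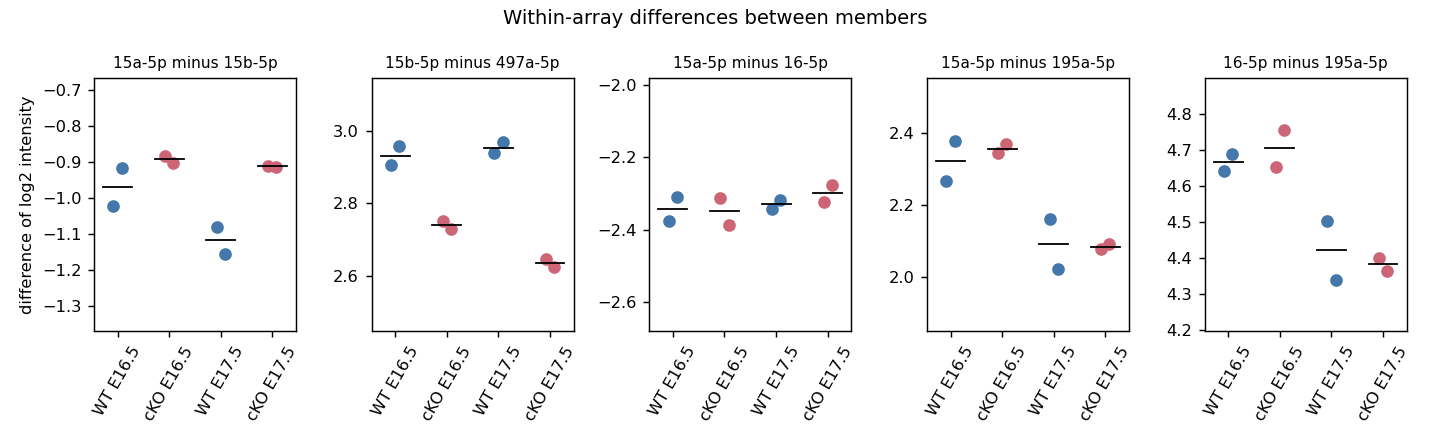
Difference of log2 intensity between 2 members on the same array (vertical axis, no unit) for 5 of the 10 pairs, by group. Points are arrays, black lines are group means, and every panel spans the same log2 range. In the second panel the cKO arrays lie below the WT arrays, in the third the 4 groups overlap, and in the last 2 the E17.5 arrays lie below the E16.5 arrays.

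The family was then set against 3 neighbouring sets, each pair of a member and a set miRNA on the same array (55 pairs over 70 arrangements of the 8 arrays). These comparisons were added after values had been seen. Every member was higher in cKO relative to miR-103-3p and miR-107-3p, which share the heptamer one base out of register: all 10 pairs were called, with changes from 0.52 to 0.80 (exact permutation, adjusted p = 0.039). Relative to the 6 miRNAs of the miR-17 cluster, which promote cell division, 27 of 30 pairs were called, all higher, and the 30 changes ran from 0.14 to 0.89. The 3 pairs that did not pass were miR-15b-5p with miR-92a-3p, and miR-195a-5p with miR-19b-3p and with miR-92a-3p. The 55 pairs reuse the same members and set miRNAs, so they are not separate results. All 40 called pairs had the smallest raw exact permutation p possible, 0.029, so each passed only because many others did. The same raw p gave an adjusted p of 0.14 over the 10 member pairs by genotype. The counts of called pairs are therefore a description and not a test of the family. The share of called pairs between members and all tested miRNAs was not computed. By limma, 46% of all tested miRNAs rose and 14.5% fell over both stages.

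These differences came with lower levels of the set miRNAs themselves. On the scaled values miR-103-3p changed by -0.45 and miR-107-3p by -0.47, miR-17-5p by -0.54, miR-18a-5p by -0.48, miR-20a-5p by -0.56, miR-92a-3p by -0.23 and miR-19a-3p by -0.19 (limma, adjusted p from 5.2e-05 to 0.013), and miR-19b-3p by -0.07 (adjusted p = 0.12). Counted within each stage (36 arrangements) 0 of the 55 pairs passed, because the smallest raw p possible is then 0.056. In the scatter of changes, miR-103-3p and miR-107-3p lie below 0 both at E16.5 and at E17.5.

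**Figure D4:**
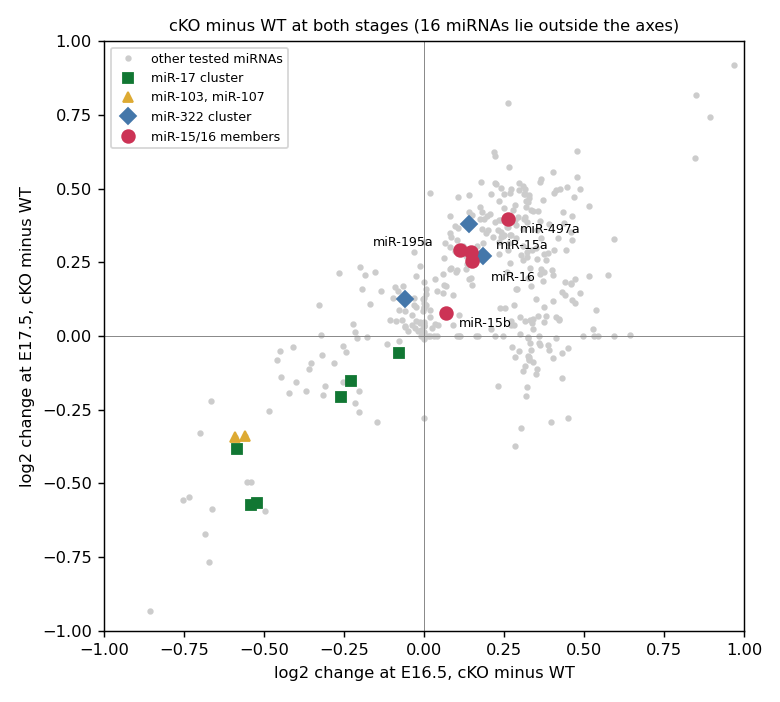
Log2 change, cKO minus WT, at E16.5 (horizontal axis) and at E17.5 (vertical axis) for the tested miRNAs, of which 16 lie outside the plotted range. Red circles are the 5 members, which all lie above 0 at both stages on this scaling, near the blue miR-322 cluster and apart from the miR-103 and miR-107 triangles and the miR-17 cluster squares, which lie below 0.

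The third set, the X-linked cluster of miR-322-5p, miR-503-5p and miR-542-3p, differed less from the family: 3 of 15 pairs were called and the changes ran from -0.19 to 0.30. The seed-sharing miR-322-5p itself rose by 0.23 and miR-503-5p by 0.26 (limma, adjusted p = 0.0030 and 0.00057), but they changed by -0.18 and -0.15 with control-probe scaling, and miR-542-3p changed by 0.03 (adjusted p = 0.40) and by -0.37 there. The miR-103 and miR-107 pair and the miR-17 cluster kept a lower median in all 6 scalings. Relative to miR-322-5p, miR-15a-5p changed by -0.01 (exact permutation p = 0.63), miR-16-5p by -0.03 (p = 0.49), miR-195a-5p by -0.03 (p = 0.83) and miR-497a-5p by 0.10 (p = 0.11), and miR-15b-5p by -0.16 (adjusted p = 0.039). The other 2 called pairs were miR-15a-5p and miR-497a-5p, both higher relative to miR-542-3p. The count was 1 without replicate 2 of WT at E17.5.

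The remaining miRNAs with the seed, miR-195b, miR-6342, miR-6353 and miR-6419, were well above background on 0 of 8 arrays. The family's seed was thus read on these arrays from 6 miRNAs, the 5 members and miR-322-5p. Of the opposite arms of the members' hairpins, miR-15a-3p, miR-15b-3p, miR-16-2-3p, miR-195a-3p and miR-497a-3p were also not well above background on any array.

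The exception was miR-16-1-3p, the opposite arm of the Dleu2 copy of miR-16. Its brightest probe was not well above background on any of the 4 WT arrays and was so on 1 of 2 cKO arrays at E16.5 and 2 of 2 at E17.5. The unscaled signal of that probe was 4.55 and 2.18 units in WT and 17.2 and 17.51 in cKO at E16.5, and 7.30 and 6.64 in WT and 25.0 and 27.8 in cKO at E17.5. On this probe all 4 cKO arrays exceeded all 4 WT arrays without any scaling. The share of all tested miRNAs without overlap was not counted. The 17.51 units on replicate 2 of cKO at E16.5 came with 0% of spots well above background. No other probe of miR-16-1-3p was well above background on any array. At E17.5 the scaled level in cKO was at least 1.28-fold that in WT, with the WT arrays at the floor (scaled log2 means of -3.89 in cKO and -4.24 in WT). At E16.5 the same bound was 0.94-fold, which does not set the cKO level above that of WT. This miRNA passed the filter for testing through the cKO arrays at E17.5 alone, the group where it was highest, so its difference is given as a description with no test.

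For each member the 3 tested miRNAs outside the family with the most similar profile were found by the root mean square difference of centred log2 levels over the 8 arrays. For miR-15a-5p these were miR-322-5p (0.039), miR-503-5p (0.046) and miR-487b-3p (0.053), and for miR-16-5p they were miR-130a-3p (0.032), miR-322-5p (0.040) and miR-532-5p (0.047). Between the family's own members, miR-15a-5p and miR-16-5p were 0.035 apart, which made miR-16-5p the nearest of all 384 to miR-15a-5p. The profile of miR-15b-5p was nearest to miR-872-5p (0.038), miR-542-5p (0.052) and miR-23b-3p (0.054), with its nearest family member, miR-15a-5p, at rank 41.

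The chromosome 11 members had other neighbours. The profile of miR-497a-5p was nearest to miR-223-3p (0.047), a myeloid miRNA, miR-126a-3p (0.053), an endothelial one, and miR-350-3p (0.053). That of miR-195a-5p was nearest to miR-152-3p (0.061), miR-29a-3p (0.070) and miR-142a-3p (0.076), with miR-497a-5p at rank 8. These distances describe 8 arrays that share one slide and one scaling, and carry no test.

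Most tested markers of other cell types, 14 of 17, also rose on the scaled values averaged over stages, beside 46% of all 385 tested miRNAs. Their summed log2 levels in WT and cKO were 5.60 to 5.79 and 5.99 to 6.11 for 7 dermal mesenchyme miRNAs, 2.32 to 2.55 and 2.60 to 2.90 for 3 skeletal muscle miRNAs, and 0.64 to 0.94 and 1.01 to 1.35 for 2 endothelial miRNAs. For the 6 blood cell miRNAs, of which miR-150-5p was not detected, they were 1.65 to 2.33 and 2.21 to 2.34, which overlap. Among these miR-144-3p changed by -0.22 and was not called. Averaged over stages, 6 of 7 mesenchymal, 3 of 3 muscle, 2 of 2 endothelial and 3 of 5 tested blood miRNAs rose on this scaling. With control-probe scaling 0 of these 17 rose and 2 fell, and with no scaling or scaling on all probes 0 rose and 0 fell. The 7 skin epithelium markers were called lower in all 6 scalings. The part of cell composition in the members' changes was not tested.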

How the data were processed

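Footpad skin RNA of 8 pools was read on 8 single-colour arrays. The deposited scanner files hold background-subtracted intensity per spot on a linear scale, extracted by the authors with Agilent Feature Extraction 11.5.1.1, per the file headers. The authors' value table equalled that signal within 0.02 in 100% of spots above 0 and served as an alternative.

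Spots marked as outliers were dropped, spots of a probe averaged, and every array divided by its own 75th percentile over 474 probes that all arrays detected (more than 50% of spots well above background), values raised to a floor of -4.24 and taken as log2. A miRNA is its probe with the highest mean, and 385 miRNAs detected on both arrays of a group were tested with limma 3.58.1 (4 group means, trend, Benjamini-Hochberg, called at adjusted p at or below 0.05). Pairs used two-sided exact permutation tests. Both were tested on simulated data. R 4.3.3 and Python 3.11.15 were used.

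The text names all 5 members with every probe, the other arms, miRNAs with the same seed, 3 neighbouring sets, cell type markers, and the 3 nearest profiles of each member. Members and lists were chosen with earlier results of these data known. Alternatives covered scaling, background, probe, floor, filter, value table, trend, groups fitted, replicate block and leaving out each array.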

Additional observations from a re-analysis of the deposited data

How the results depend on the processing

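Members called, cKO minus WT averaged over stages (4 higher in the main setting), numbered 0 with scaling on all probes or none, 2 with median scaling, 3 with quantile scaling and 3, all lower, with control probes, and 3 to 4 with each array left out in turn. At E16.5 (1 higher) there were 0 with all-probe, no, median or control-probe scaling, with the replicate block or with only the groups compared, 3 with the mean of probes, 2 with miRNAs detected on all arrays or with the other probe, and 0 to 2 with an array left out. At E17.5 (4 higher) there were 0 with all-probe, no or median scaling, 3, all lower, with control probes, and 1 to 4 with an array left out. For stage in WT (0) there were 4 with no or control-probe scaling and 1 with the other probe. For stage in cKO (1) there were 0 with all-probe or no scaling or normexp, 2 with quantile scaling, 3 with the mean of probes or the other probe, and 0 to 2 with an array left out. Pairs with the miR-322 cluster (3) numbered 5 with the mean of probes and 1 to 4 with an array left out, pairs with the miR-17 cluster 21 to 27, and pairs with miR-103 and miR-107 10 in all of these.

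Changes that turned sign and passed the test in either setting, averaged over stages, were, for miR-15a-5p, miR-16-5p and miR-195a-5p in turn, -0.064, -0.076 and -0.077 with all probes, -0.092, -0.10 and -0.10 with no scaling, and -0.19, -0.20 and -0.20 with control probes, with -0.33 for miR-15b-5p and -0.077 for miR-497a-5p there. At E17.5 they were, in the same order, -0.044, -0.074 and -0.036 with all probes, -0.10, -0.13 and -0.10 with no scaling, and -0.22, -0.25 and -0.22 with control probes, with -0.43 for miR-15b-5p and -0.11 for miR-497a-5p there. With all probes and no scaling, where it was not called, miR-15b-5p was also negative, at -0.21 and -0.23 averaged over stages and -0.25 and -0.31 at E17.5. At E16.5 miR-15a-5p gave -0.084 with all probes, -0.080 with no scaling and -0.16 with control probes. For stage in WT it gave 0.59 with no scaling and 0.22 with control probes. These settings differ from the main one in the scaling factor of each array alone; why the factors differ was not tested.

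The numbers of replicates did not count as pairing, because same-numbered arrays deviated together with r from -0.14 to 0.28. With the replicate block 3 members were called over both stages together, 3 at E17.5 and 0 at E16.5, and the count for stage did not move. Leaving an array out leaves 1 in its group, assumed to vary like the others. Without a filter, miRNAs at the floor on all arrays could not be fitted. The alternatives with the other probe and the pairs with neighbouring sets were chosen after seeing the data. With 2 arrays a group and the dim miR-195a-5p and miR-497a-5p, changes the size of the array-to-array spread were not detectable.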
